A study of Drosophila melanogaster with 12 samples.

Results

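The genes described here encode the voltage-gated sodium, calcium and potassium channels of *Drosophila melanogaster*, the other main potassium channels, the transient receptor potential (TRP) channels, and the subunits that travel with them. They are a list of 38 names chosen by function and not by any measured value, out of 18119 genes tested. Of these names, 34 matched the Ensembl annotation as spelled, and the 4 names *TEH1* to *TEH4* matched by letter case as *Teh1* to *Teh4*. The question put to them was whether binding of the chromatin protein Polycomb-like (Pcl) at channel genes in sweet taste neurons differed between flies on a control diet (CD) and flies on a sugar diet (SD).

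Binding was read by Targeted DamID (TaDa), in 3 Dam::Pcl replicates from flies fed 5% sucrose and 3 from flies fed 30% sucrose, each replicate made from 300 pooled heads of males and females. All 6 carried the same genotype, Gr5a;tubulinGAL80ts>UAS-LT3-Dam::Pcl, so both diets share the added copy of *Pcl* fused to *Dam*, the *Gr5a* driver that places it in sweet-sensing neurons, and the temperature-sensitive GAL80 that holds it silent until the flies are warmed. By the labels, flies were collected 2 days after they emerged, put on their diet at day 5, and moved from 20°C to 29°C at day 6, whereas the sample titles give 4 days and the study's methods give a longer time on the diet and a slightly lower induction temperature. Whole heads were extracted, but only cells that express the driver methylate their DNA, and a change in the share of these cells that are bound cannot be told apart from a change in binding per cell. Dam-only samples (3 per diet) enter only as the denominators of the deposited ratios and were not analysed here.

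Ion channels set how a neuron turns a stimulus into spikes. TRP and other receptor channels start the electrical response, sodium channels carry the action potential, calcium channels couple it to transmitter release, and potassium channels bring the membrane back to rest and set its resting level. Pcl is a subunit of one form of Polycomb Repressive Complex 2, which methylates histone H3 at lysine 27 and is best known for keeping developmental genes silent. In TaDa the Dam fusion methylates adenine in nearby GATC sequences, and each GATC fragment is given as log2(Dam::Pcl/Dam), where a value above 0 is more methylation by the fusion than by Dam alone. The assay reads binding at a gene, not its expression.

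Here the Pcl level of a gene is the length-weighted mean of that log2 ratio over the gene with 1 kb on each side, means are given with their SD over n = 3 replicates per diet, and differences are SD minus CD on the log2 scale with their standard error (SE). A gene is called when limma's p-value, adjusted by Benjamini-Hochberg over all 18119 genes, is under 0.05. The p-values measure only the spread between these samples. Replicates of 1 diet may also share a Dam-only denominator. Of the fragments listed at 0 in 1 sample, 0% were below 0 in samples of the same diet. In samples of the other diet, 8.99% to 15.7% were. With a shared denominator, a difference in Dam alone between the diets would shift all replicates of a diet alike and would not widen their spread. The study reports lower Dam-only accessibility on the sugar diet at Pcl peaks and at Polycomb response elements. A change in Pcl therefore cannot be told apart from a change in the Dam-only signal. Rose and fell below refer to the ratio. Between 10.6% and 11.1% of fragments were listed at 0 in each sample, and no sequencing depth comes with the ratios. The 5 reference genes of Polycomb silencing, *Ubx*, *Abd-B*, *Antp*, *en* and *inv*, had CD levels from 2.61 to 4.13 and all lay at a peak. None of the 8 sweet receptor genes, the 3 bitter receptor genes or the 3 neuronal and glial marker genes did, and their CD levels ran from -0.43 to 0.23, from -0.47 to 0.94 and from -0.05 to 0.92.

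As means over the whole gene, the Pcl levels of most channel genes were low on either diet, and *nompC* stood far above the others. On the control diet the 38 levels ran from -0.62 at *Task6* to 2.31 at *nompC*, with a median of 0.27, beside a median of 0.04 over all genes and 1.87 over the 1134 genes at a peak. After *nompC* the next levels were 0.92 at *Irk1* and 0.75 at *tipE*, so all channel genes but *nompC* lay well under the median of peak genes. Such means can hide local binding in long genes, and the median span was 17.5 kb against 1.66 kb over all genes. Within 1 kb of single transcript starts the control diet level reached 2.93 at *Teh2*, 2.28 at *tipE* and 2.07 at *Ca-alpha1D*. The median over the 79 channel starts tested was 0.40. The whole-gene level was above 0 at 29 of the genes on the control diet and at 27 on the sugar diet. By gene, 8 rose on the sugar diet, where 22.3% of all genes rose, and 12 fell, where 25.7% of all genes fell, while 18 were not called. All sugar diet replicates lay above all control diet replicates at 9 channel genes (28.2% of all genes) and below them at 16 (31.7% of all genes), and at 13 the diets overlapped. The median difference over the 38 was -0.12, against -0.01 over all genes. With the 6 samples quantile normalized, 8 rose and 19 fell, beside 4069 and 5369 of all 18119 genes. Without control replicate 2 the number that rose was 4, beside 2583 of all genes.

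**Figure D1:**
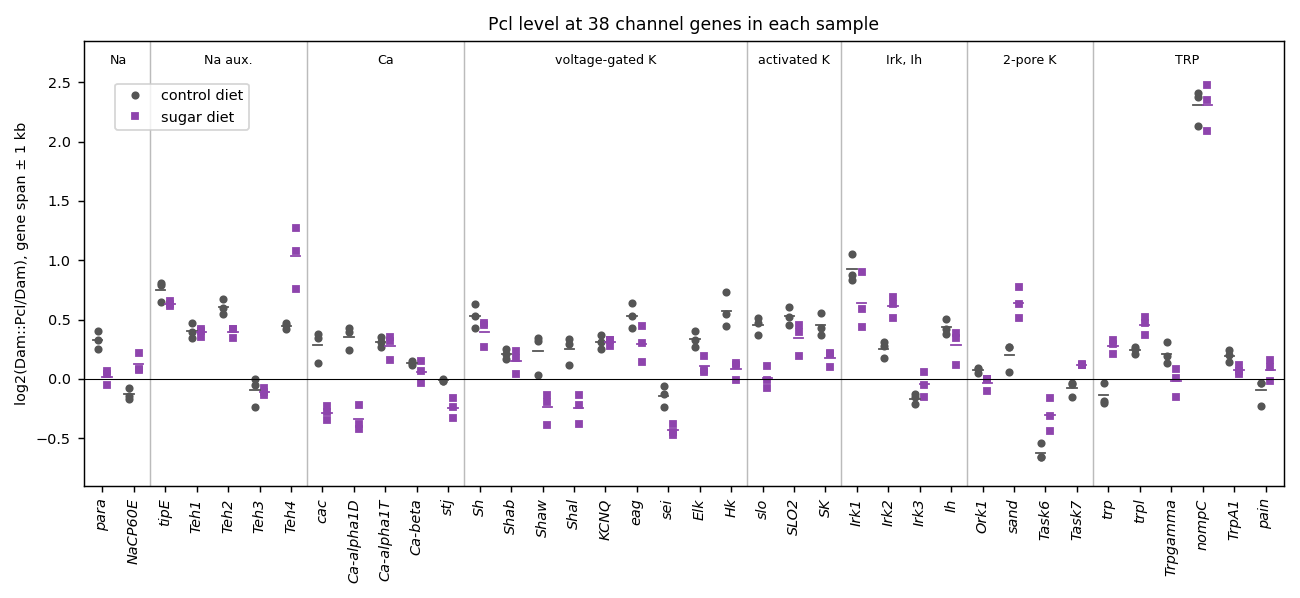
Pcl level, as the mean log2(Dam::Pcl/Dam) over the gene with 1 kb on each side (vertical axis), for each of the 38 channel genes (horizontal axis), grouped by role. Circles are the 3 control diet replicates, squares the 3 sugar diet replicates and ticks the means of each diet. *nompC* lies near 2.31 on both diets, and the next highest control diet mean is 0.92 at *Irk1*.

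The channel gene with the highest whole-gene level, *nompC*, did not differ detectably between the diets. It encodes a TRP channel that opens on mechanical force and serves touch and hearing. It lies at chr2L:5346200-5365760 (dm6, plus strand). Its levels were 2.41, 2.38 and 2.13 on the control diet and 2.09, 2.35 and 2.47 on the sugar diet. As whole-gene values the diets overlapped, with means of 2.31 ± 0.15 and 2.31 ± 0.19 and a difference of 0.00 ± 0.13 (SE, adjusted p = 1). On the control diet it ranked at the 97.6th percentile of all genes. Single fragments, picked after their values were seen and not tested, lay apart in both directions. One at 13.465 kb to 13.686 kb from the start read 3.92, 4.04 and 3.22 on the control diet and 0.98, 1.58 and 1.08 on the sugar diet, and one at 0.798 kb to 0.842 kb read 5.00, 4.92 and 5.02 against 6.32, 6.36 and 6.17. The equal means of the gene do not by themselves show equal values along it. How often single fragments lie apart over all genes is not given here. Around its start, chr2L:5346200 with 1 kb on each side, the level was higher still, at 4.03, 3.93 and 3.63 against 3.49, 4.24 and 4.12, and the difference was 0.09 ± 0.23 (adjusted p = 0.781). Quantile normalization gave the gene a difference of -0.24 with an adjusted p of 0.00962, and scaling by the median absolute deviation also turned the difference negative (adjusted p = 0.0669).

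Peaks were runs of high fragments found in all 3 replicates of a diet, and a channel gene counts as at a peak when its window overlaps one. This was so for 6 of the 38 (*nompC*, *tipE*, *Teh2*, *Sh*, *SLO2* and *Ih*), or 15.8%, beside 6.26% of all genes. Channel genes are long, with a median span of 17.5 kb against 1.66 kb over all genes. The part of length in this share was not tested. The 6 genes held 7 distinct peaks, of which 3 were called on both diets, 4 on the control diet alone and 0 on the sugar diet alone. Over all 1632 peaks these numbers were 994, 358 and 280. The 4 were those of *Teh2* with *tipE*, *Sh* (chrX:18022508-18024548, then chrX:18031341-18033775) and *Ih*. Their control diet means were, in that order, 2.92, 2.11, 2.28 and 2.32, and their sugar diet means 2.34, 2.36, 1.27 and 2.46. The label is about peak calling and does not mean that Pcl was absent on the sugar diet. Of the 7 peaks, 1 rose (36.2% of all peaks rose) and 2 fell (12.7% of all peaks fell).

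*nompC* held 2 of these peaks. The first, chr2L:5345013-5354217, covered its start and 41.8% of its window, with values of 3.03, 3.00 and 2.82 on the control diet and 2.74, 3.20 and 3.00 on the sugar diet. The second, chr2L:5361658-5363920, lay toward the end of the gene and had 5.23, 5.18 and 4.43 against 4.43, 4.92 and 6.25. The diets overlapped at both, with differences of 0.03 (adjusted p = 0.915) and 0.26 ± 0.35 (adjusted p = 0.568), and the second was the higher of the 2 in every sample. The 250 bases before the *nompC* start are shown because they border the start with the highest control level of the list. They hold no GATC and no match to either motif described below.
nompC: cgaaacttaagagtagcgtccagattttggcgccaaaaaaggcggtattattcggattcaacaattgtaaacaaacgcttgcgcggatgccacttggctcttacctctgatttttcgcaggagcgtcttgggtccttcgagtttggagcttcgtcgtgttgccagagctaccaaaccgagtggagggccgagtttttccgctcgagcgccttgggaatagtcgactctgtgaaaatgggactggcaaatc

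A single peak, chr3L:4186999-4189057, spanned the adjoining ends of *Teh2* and *tipE*, which encode auxiliary subunits that raise the sodium current carried by the *para* channel. *CG18675* also overlaps this peak. The peak read 2.95, 2.80 and 3.03 on the control diet and 2.15, 2.56 and 2.32 on the sugar diet. No sugar diet value reached a control diet value, and the peak fell by 0.58 ± 0.22 (adjusted p = 0.0348). Leaving out any 1 control replicate, or sugar replicate 3, ended this call, with adjusted p-values of 0.134, 0.0891, 0.104 and 0.0558. Its highest fragment on the control diet, chr3L:4187369-4187628, sits inside *Teh2* outside any exon and had values of 3.75, 3.66 and 3.94 against 2.56, 3.76 and 3.17, so at this single fragment the diets overlapped. It is shown as the control diet maximum of the only peak of the sodium channel subunit genes. Another fragment of the peak, nearer to the *tipE* start, read 3.85, 3.68 and 3.62 on the sugar diet. This was above the fragment shown in sugar replicates 1 and 3 but not in replicate 2. Capitals mark matches to GCCAT, the core of the site bound by the Polycomb recruiter Pho, read on the other strand as ATGGC.
Teh2 peak fragment: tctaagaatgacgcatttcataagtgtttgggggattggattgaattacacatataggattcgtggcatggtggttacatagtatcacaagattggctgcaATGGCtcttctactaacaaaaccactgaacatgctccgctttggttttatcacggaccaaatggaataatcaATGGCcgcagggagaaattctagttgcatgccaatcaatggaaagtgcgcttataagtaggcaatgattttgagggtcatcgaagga

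*Sh*, which encodes the Shaker potassium channel of the A-type current, held 2 intronic peaks far inside its 138.9 kb span at chrX:17924307-18063247. The peak at chrX:18031341-18033775 read 2.53, 2.31 and 1.98 on the control diet and 0.69, 1.72 and 1.40 on the sugar diet. The diets did not overlap, and it fell by 1.01 ± 0.26 (adjusted p = 0.00376). After a correction for GC content this difference was -0.46 with an adjusted p of 0.130. The peak at chrX:18022508-18024548, where *CG6867* also lies, read 2.24, 2.04 and 2.06 against 1.99, 2.61 and 2.48, and its difference of 0.25 was not called (adjusted p = 0.386). Over the whole gene *Sh* read 0.63, 0.53 and 0.43 against 0.27, 0.45 and 0.47, which overlap (-0.13 ± 0.08, adjusted p = 0.224).

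*SLO2* encodes a relative of the large-conductance potassium channel that in mammals is opened by sodium. Its peak at chr2R:10334138-10336899 overlapped a coding exon and read 2.95, 2.77 and 2.76 on the control diet and 3.29, 3.56 and 3.52 on the sugar diet. The diets did not overlap and the peak rose by 0.63 ± 0.22 (adjusted p = 0.0199), while the whole gene had 0.61, 0.52 and 0.45 against 0.19, 0.45 and 0.40, a difference of the opposite sign that was not called (-0.18 ± 0.08, adjusted p = 0.127). The call at the peak was lost with quantile normalization (0.31, adjusted p = 0.0695), with scaling by the median absolute deviation (adjusted p = 0.868), with GC correction (0.34, adjusted p = 0.281) and without control replicate 1 (0.0579), 2 (0.114) or 3 (0.0634) or sugar replicate 2 (0.0665). The peak of *Ih*, the hyperpolarization-activated cation channel, at chr2R:14278069-14279636 read 2.46, 2.15 and 2.35 against 2.08, 2.61 and 2.70. Those values overlap (0.14 ± 0.23, adjusted p = 0.634), as did those of the whole gene at 0.50, 0.38 and 0.42 against 0.12, 0.35 and 0.39 (adjusted p = 0.188).

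Among the sodium channel genes, *para* fell and *NaCP60E* rose, where 25.7% of all genes fell and 22.3% rose. *para* encodes the sodium channel of the action potential. Its level went from 0.33 ± 0.08 on CD to 0.02 ± 0.07 on SD, a fall of 0.31 ± 0.06 (adjusted p = 0.0103) without overlap. *NaCP60E*, which encodes a sodium channel-like cation channel, went from -0.13 ± 0.04 to 0.12 ± 0.08 (0.26 ± 0.06, adjusted p = 0.0153), and its window shares 2173 bp with that of *pain*. Neither call held after a correction for GC content, where *para* read 0.06 (adjusted p = 0.435) and *NaCP60E* 0.02 (adjusted p = 0.881). Of the 5 auxiliary subunit genes, *Teh4* rose (22.3% of all genes), *Teh2* fell (25.7% of all genes), and *tipE*, *Teh1* and *Teh3* were not called. *Teh4*, at chr3L:4174859-4178270, read 0.47, 0.42 and 0.46 on the control diet and 0.75, 1.08 and 1.27 on the sugar diet. The diets were clearly apart (0.59 ± 0.13, adjusted p = 0.0164), although the sugar diet replicates spread over a wider range. *Teh2*, next to it, read 0.67, 0.55 and 0.59 against 0.35, 0.42 and 0.42 and fell by 0.21 ± 0.05 (adjusted p = 0.0197). The windows of *Teh2* and *Teh4* share 1291 bp, those of *Teh2* and *Teh3* share 4019 bp and those of *Teh2* and *tipE* share 1525 bp, so these neighbours are not independent. *tipE* read 0.79, 0.65 and 0.81 against 0.63, 0.66 and 0.61, which overlap (-0.12 ± 0.06, adjusted p = 0.142). *Teh1* and *Teh3* differed by -0.01 ± 0.05 and -0.01 ± 0.07.

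Of the 5 calcium channel genes 3 fell and 0 rose (25.7% and 22.3% of all genes), and on the values as deposited they held the 2 largest falls by gene. *Ca-alpha1D*, the L-type pore subunit, at chr2L:16165831-16190540, read 0.43, 0.39 and 0.24 on the control diet and -0.43, -0.22 and -0.38 on the sugar diet. It fell by 0.70 ± 0.08 (adjusted p = 0.00259), from above 0 in every control replicate to below 0 in every sugar replicate. *cac*, the presynaptic pore subunit that gates transmitter release, at chrX:11931280-11985087, read 0.38, 0.34 and 0.14 against -0.35, -0.23 and -0.28 and fell by 0.57 ± 0.08 (adjusted p = 0.00389). With GC correction *Ca-alpha1D* was -0.24 and still called (adjusted p = 0.0293), behind *Teh3*, *tipE*, *Teh2* and *sei* among the falls. *cac* turned to 0.10 (adjusted p = 0.223). *stj*, an alpha2delta auxiliary subunit, fell from -0.01 to -0.24 (adjusted p = 0.0179). The T-type gene *Ca-alpha1T* and the auxiliary gene *Ca-beta* overlapped between the diets, with differences of -0.03 ± 0.06 and -0.08 ± 0.06 (adjusted p of 0.7 and 0.313).

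Of the 9 voltage-gated potassium channel genes, 5 fell and 0 rose, where 25.7% of all genes fell and 22.3% rose. *Hk*, which encodes the beta subunit of the Shaker channel, at chrX:10233347-10263485, read 0.73, 0.55 and 0.45 on the control diet and -0.01, 0.13 and 0.11 on the sugar diet (-0.50 ± 0.09, adjusted p = 0.00754). *Shal*, an A-type channel of dendrites and cell bodies, at chr3L:19566851-19584568, read 0.34, 0.29 and 0.12 against -0.38, -0.14 and -0.22, and its adjusted p was 0.0081. In both genes the lowest control replicate stayed above the highest sugar replicate. *Shaw*, a slowly inactivating channel, fell by 0.47 ± 0.11 (adjusted p = 0.0194). Of the ether-a-go-go family, *sei* fell by 0.29 ± 0.06 (adjusted p = 0.0122) and *Elk* by 0.22 ± 0.06 (adjusted p = 0.0285), while *eag* at -0.24 ± 0.10 was not called (adjusted p = 0.094). *Sh*, *Shab* and *KCNQ* were not called either, and the *KCNQ* difference of 0.00 ± 0.05 was the smallest of the group. Of the 5 that fell, *sei* alone kept its call with GC correction (-0.25, adjusted p = 0.0318). *Hk* (adjusted p = 0.202), *Shal* (0.133) and *Shaw* (0.269) lost it and *Elk* turned to 0.09.

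The calcium-activated potassium channels *slo* and *SK*, which end spikes and shape the pause after them, both fell, where 25.7% of all genes fell. *slo* went from 0.45 ± 0.07 to 0.01 ± 0.09 (-0.44 ± 0.07, adjusted p = 0.00499) and *SK* from 0.45 ± 0.10 to 0.17 ± 0.06 (-0.28 ± 0.07, adjusted p = 0.0201). Neither overlapped between the diets. With GC correction neither was called, at -0.01 for *slo* (adjusted p = 0.914) and 0.13 for *SK* (adjusted p = 0.143).

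Of the 4 inward rectifier and *Ih* genes 1 rose and 0 fell, and of the 4 genes of 2-pore potassium channels, which carry leak currents at rest, 3 rose and 0 fell, beside 22.3% and 25.7% of all genes. *Irk2*, an inward rectifier, at chr3R:23513617-23519445, read 0.31, 0.17 and 0.27 on the control diet and 0.63, 0.51 and 0.69 on the sugar diet (0.36 ± 0.07, adjusted p = 0.00863). *sand*, a 2-pore potassium channel known for its part in sleep control, at chr2R:8091696-8096948, read 0.27, 0.06 and 0.27 against 0.78, 0.51 and 0.63 (0.44 ± 0.09, adjusted p = 0.0135). Both genes were separated between the diets, and *Irk2* and *sand* were the only called channel genes that kept their call under all 14 alternatives fitted to gene spans. The leak channel genes *Task6* (0.32 ± 0.08, adjusted p = 0.025) and *Task7* (0.20 ± 0.05, adjusted p = 0.019) rose as well, *Task6* from the lowest level of the list. *Irk1* read 1.06, 0.88 and 0.83 against 0.44, 0.59 and 0.90, which overlap through 1 sugar replicate. Its difference of -0.28 ± 0.13 (adjusted p = 0.135) became -0.41 with an adjusted p of 0.0287 without sugar replicate 3. Of its starts, described further on, some fell. *Irk3* and *Ih* were not called, nor was *Ork1*, where all sugar replicates lay below all control replicates (-0.11 ± 0.05, adjusted p = 0.105).

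In the TRP family the 2 phototransduction channels rose and the other 4 genes were not called, where 22.3% of all genes rose and 25.7% fell. *trp*, at chr3R:29914521-29920289, read -0.18, -0.21 and -0.03 on the control diet and 0.21, 0.33 and 0.29 on the sugar diet (0.42 ± 0.06, adjusted p = 0.00526), below 0 in every control and above 0 in every sugar replicate, and 0.13 with GC correction (adjusted p = 0.186). *trpl* rose by 0.21 ± 0.05 (adjusted p = 0.0226), but this call was lost without any 1 control replicate and without sugar replicate 2 or 3. *Trpgamma*, related to both, had -0.23 ± 0.08 (adjusted p = 0.0627). *TrpA1*, a channel for heat and irritants, had -0.12 ± 0.05 (adjusted p = 0.0776), and *pain*, needed for the response to noxious heat, had 0.18 ± 0.08 (adjusted p = 0.117). At these 3 genes the diets did not overlap although none was called. Over all genes, all sugar replicates lay above all control replicates at 28.2% and below them at 31.7%.

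The calls at *para*, *cac*, *Ca-alpha1D*, *Shal*, *sei*, *Hk*, *slo*, *trp*, *Irk2* and *sand* held whichever replicate was left out. Those at the other called genes did not, and their adjusted p-values then ran from 0.0508 to 0.0818. *Elk* lost its call without control replicate 1 (0.0814) or 2 (0.0791) or sugar replicate 1 (0.0782) or 3 (0.0779), and *trpl* without control replicate 1 (0.0594), 2 (0.0775) or 3 (0.0509) or sugar replicate 2 (0.0587) or 3 (0.0628). *stj* lost it without control replicate 1 (0.0522), 2 (0.0581) or 3 (0.0523), *Teh2* without control replicate 1 (0.0553) or 3 (0.0509) or sugar replicate 1 (0.0560), and *Task6* without control replicate 2 (0.0818) or 3 (0.0716) or sugar replicate 1 (0.0608). The other losses were *Shaw* without control replicate 1 (0.0613) or 2 (0.0675), *SK* without control replicate 2 (0.0579) or sugar replicate 1 (0.0552), *Task7* without sugar replicate 1 (0.0508) or 2 (0.0516), and *NaCP60E* (0.0567) and *Teh4* (0.0566) without control replicate 2. *eag*, not called as deposited, was called without sugar replicate 2 (-0.31, adjusted p = 0.0499).

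GC content moved with the direction of the calls. The genes that rose had a GC content of 43.4% to 47.3% and those that fell 36.3% to 44.2%. Of the 19 channel genes with the lower GC content 0 rose and 9 fell, and of the other 19, 8 rose and 3 fell. Among all genes, whatever their GC content, 22.3% rose and 25.7% fell. Across the 38 genes the difference between diets followed GC content with Pearson's r of 0.76, and across all genes with 0.67, a description over genes that share the same 6 samples. The slope was 0.80 on the log2 scale per 10 percentage points of GC in channel genes and 0.79 over all genes. A fitted dependence on GC was then removed from every sample. This left 5 channel genes higher and 6 lower, beside 2641 and 3381 of all 18119 genes (4032 and 4661 as deposited). Of the 20 calls, 7 held (*Ca-alpha1D* -0.24, *stj* -0.22, *sei* -0.25, *Teh2* -0.27, *Irk2* 0.34, *sand* 0.35 and *Task6* 0.31), 9 were lost, and 4 changed sign without a call (*para* 0.06, *cac* 0.10, *Elk* 0.09 and *SK* 0.13). Of the 9, *slo* (-0.01), *NaCP60E* (0.02) and *Task7* (0.07) came close to 0. *Hk* (-0.13), *Shaw* (-0.14), *Shal* (-0.16), *trp* (0.13) and *trpl* (0.15) kept a smaller difference, and *Teh4* kept 0.38 with an adjusted p of 0.0663. After the correction *Teh3* (-0.41) and *tipE* (-0.31) were called lower, and *KCNQ* (0.27) and *Teh1* (0.22) higher. The part of GC content in the differences was not tested.

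**Figure D2:**
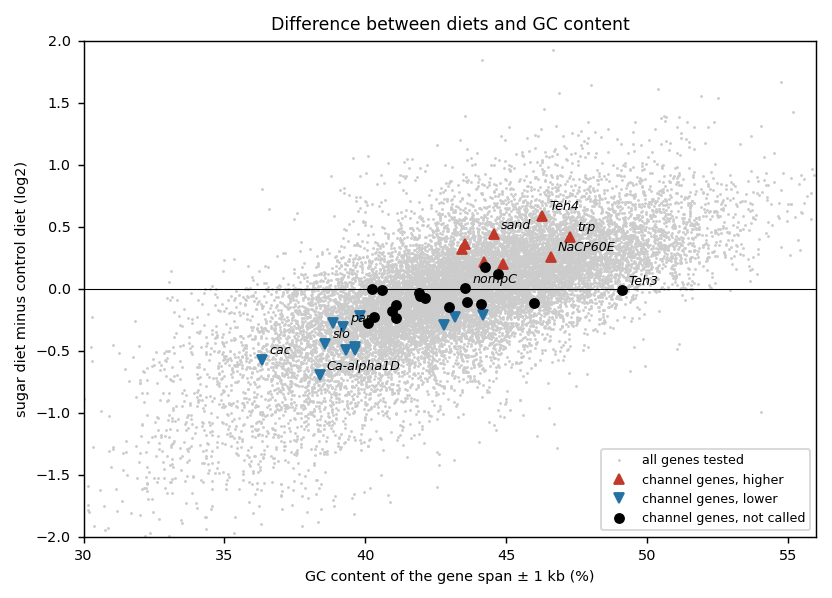
Difference in Pcl level between the diets (sugar minus control, log2, vertical axis) against the GC content of the gene window in percent (horizontal axis), for all genes in grey and the channel genes in colour by call. The channel genes lie along the same slope as all genes (0.80 and 0.79 per 10 percentage points), and 78 genes lie outside the axes.

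**Figure D3:**
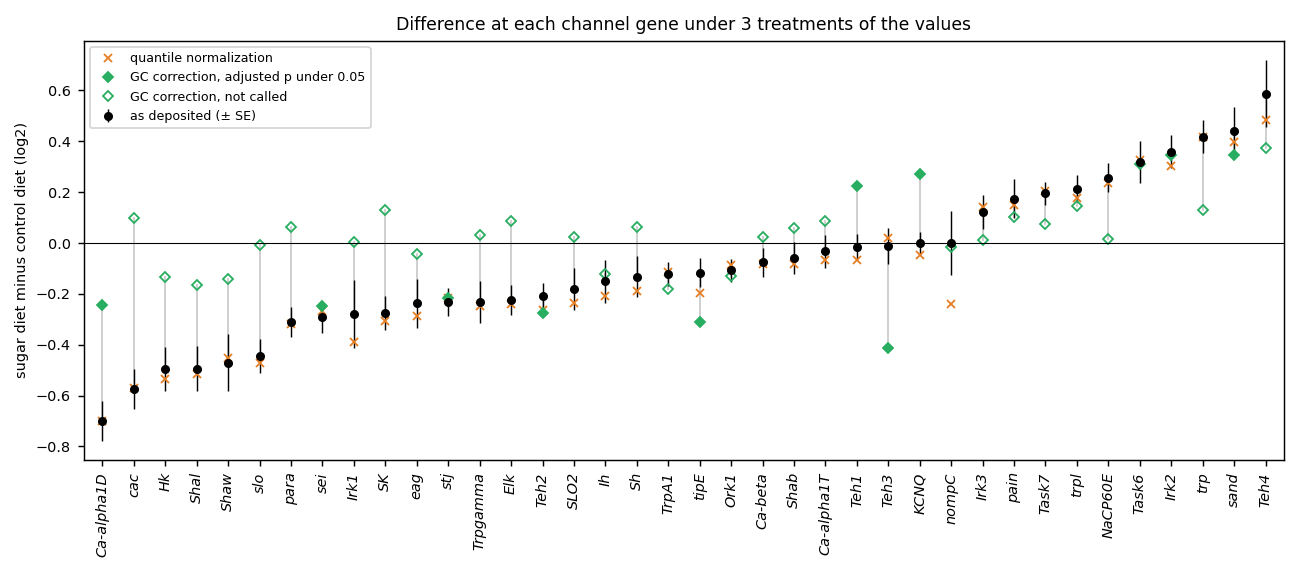
Difference between the diets (sugar minus control, log2, vertical axis) at each channel gene (horizontal axis) from the values as deposited (with SE), after quantile normalization and after GC correction. Only the GC correction diamonds are filled or open by call, filled where the adjusted p is under 0.05. The circles of the values as deposited are solid whether called or not, and crosses are the quantile normalized values. *Irk2*, *sand* and *Teh2* keep their place, whereas *cac* moves from -0.57 to 0.10 under the GC correction.

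Fragments listed at 0 in all 6 samples took 13.8% of the *KCNQ* window, 13.3% of *Teh1* and 11.5% of *Shab*, which draws their means toward 0 on both diets. With those fragments left out the 3 genes were still not called, and their differences were -0.02 at *Teh1* (adjusted p = 0.856), -0.07 at *Shab* (adjusted p = 0.496) and 0.00 at *KCNQ* (adjusted p = 0.989).

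Transcript starts were read separately, as windows of 1 kb on each side. The channel genes had 84 distinct starts, of which 79 held enough fragments to test. Of these, 22 rose (22% of all starts rose), 18 fell (24.2% of all starts fell) and 39 were not called. Starts and whole genes did not always move together. The 4 genes *para*, *stj*, *slo* and *SK* fell as a whole and had a start that rose, and no gene that rose had a start that fell. Of the genes that rose, *Task6*, *Task7*, *Teh4*, *trp*, *trpl* and *sand* had only 1 tested start each, and *NaCP60E* and *Irk2* had 2. *Sh* and *Irk1* had starts called in both directions. The shares of all genes with such starts are not given here. Of the 37 outermost starts tested, 14 rose and 7 fell (21.7% and 23.9% of all outermost starts), and of the 42 inner starts 8 rose and 11 fell (22.9% and 25.0% of all inner starts). Windows of 1 gene can overlap and are not independent. After GC correction 14 of the 22 higher starts and 6 of the 18 lower starts kept their call, and 5 of the lower ones changed sign. With newly called starts this left 21 higher and 8 lower. The share of all starts called after GC correction is not given here, so these counts cannot be set against it.

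**Figure D4:**
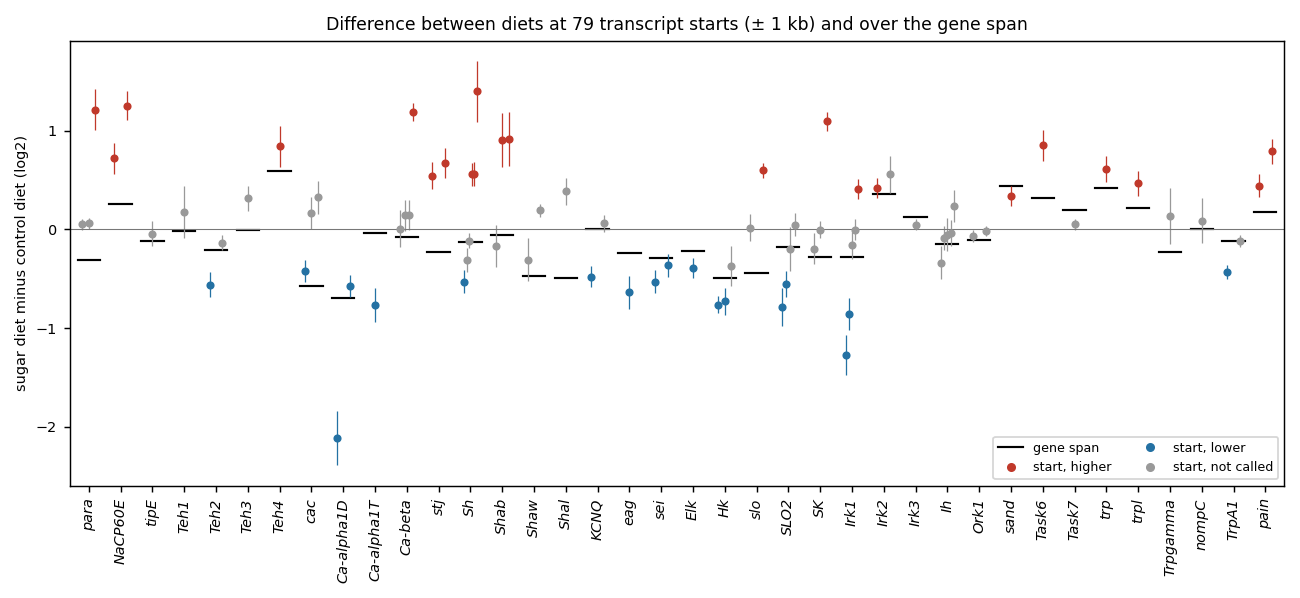
Difference in Pcl level between the diets (sugar minus control, log2, vertical axis) at each of the 79 transcript starts (points with SE, coloured by call), by gene (horizontal axis), beside the difference over the whole gene (black line). *para* and *SK* lie below 0 as genes (-0.31 and -0.28) with a start above 1, and the inner start of *Ca-alpha1D* reaches -2.11.

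The largest rises at starts were those of *Sh*, *NaCP60E* and *para*. The outermost *Sh* start, chrX:18063247, read -0.13, -0.35 and -0.46 on the control diet and 0.63, 0.85 and 1.77 on the sugar diet (1.40 ± 0.31, adjusted p = 0.0152). All sugar replicates were higher, with a wide spread between them, and without control replicate 2 the adjusted p was 0.0532. The *NaCP60E* start, chr2R:24891614, read 0.60, 0.54 and 0.54 against 1.54, 2.11 and 1.78 (1.25 ± 0.15, adjusted p = 0.00273). The outermost *para* start, chrX:16533096, read 0.77, 0.32 and 0.28 against 1.40, 1.61 and 2.00 (1.21 ± 0.20, adjusted p = 0.00678). The diets did not overlap at any of these 3, and after GC correction their differences were 1.43, 0.83 and 1.26, all still called. *Ca-beta*, which was not called as a gene, had a start at chr2L:11203544 with 0.31, 0.16 and 0.20 against 1.25, 1.53 and 1.45 (1.19 ± 0.10, adjusted p = 0.00161), and *SK* a start that went from 0.46 to 1.55 (1.09 ± 0.10, adjusted p = 0.00183).

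The largest falls at starts were in *Ca-alpha1D* and *Irk1*. An inner start of *Ca-alpha1D*, chr2L:16168346, is 2.52 kb inside the gene and is read by 3 fragments. It had 2.27, 2.21 and 1.73 on the control diet and -0.51, 0.44 and -0.06 on the sugar diet, a fall of 2.11 ± 0.27 (adjusted p = 0.0034) that was -1.60 after GC correction and still called. The control level there was 2.07 ± 0.29, while the whole gene is at 0.36, and the window of this start overlaps no peak. *Irk1* fell at chr3R:23181845 from 0.88, 0.61 and 0.31 to -0.96, -0.69 and -0.37 (-1.27 ± 0.20, adjusted p = 0.00595), and at chr3R:23182268 from 0.92, 0.74 and 0.49 to -0.41, -0.05 and 0.05 (-0.85 ± 0.16, adjusted p = 0.00992). The diets were apart at both, and after GC correction the differences were -0.43 (adjusted p = 0.0783) and -0.50 (adjusted p = 0.031). Another *Irk1* start, chr3R:23178617, rose by 0.41 (adjusted p = 0.0235), a call lost without control replicate 1 (0.0556) or 2 (0.0759) or sugar replicate 1 (0.0608) or 3 (0.0619), and the one at chr3R:23173873 stayed high on both diets, at 2.00 and 1.84 (adjusted p = 0.359).

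**Figure D5:**
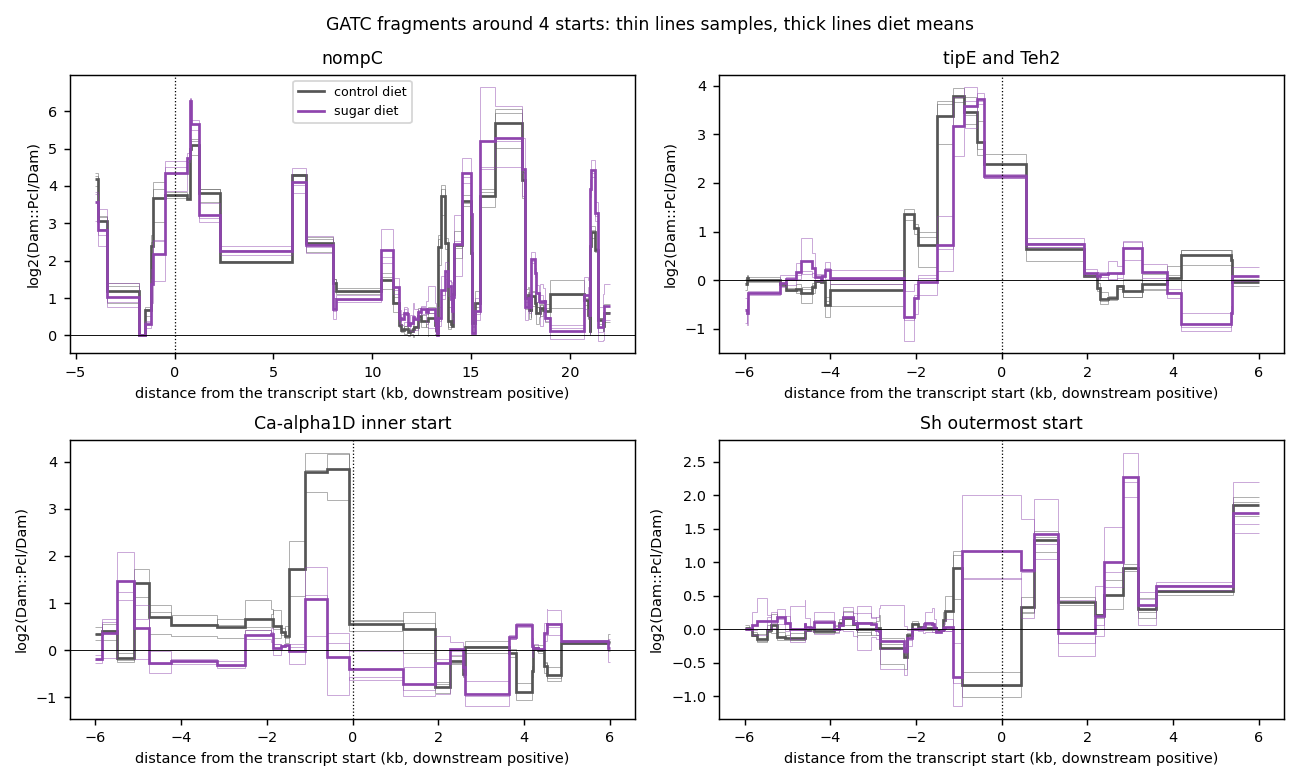
Fragment values of log2(Dam::Pcl/Dam) (vertical axis) against distance in kb (horizontal axis) around *nompC*, the *tipE* and *Teh2* peak, the inner start of *Ca-alpha1D* and the outermost start of *Sh*. Thin lines are replicates and thick lines the mean of each diet. At the *Ca-alpha1D* start the control diet lines stand above the sugar diet lines (2.07 against -0.04 over the window), at the *Sh* start the order is the opposite (-0.32 against 1.08), and across *nompC* the diets cross, with single fragments apart in both directions.

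The 250 bases before 5 of the starts with large differences are shown so that their base composition can be read beside the differences. The *NaCP60E* start, which moved further than those of *para* and *Ca-beta*, and the other *Irk1* start that fell are not shown. They were taken from the RefSeq copy of the Release 6 genome (dm6), 5′ to 3′ on the strand of the gene, at chrX:18063248-18063497 (minus) for *Sh*, chrX:16533097-16533346 (minus) for *para*, chr2L:11203545-11203794 (minus) for *Ca-beta*, chr2L:16168096-16168345 (plus) for *Ca-alpha1D* and chr3R:23181595-23181844 (plus) for *Irk1*. Capitals mark GATC, the sequence that Dam methylates, GAGAG or its complement CTCTC, the core site of GAGA factor, and GCCAT or its complement ATGGC. In these 250 bases the 3 that rose have a GC content of 58.4%, 62% and 54% in the order given, and the 2 that fell 36% and 38%. In the windows of 1 kb on each side, which gave the differences, it was 42.6%, 42.5% and 52.4%, and 37.8% and 35.1%. The median over all start windows was 43.0%. Other starts broke the upstream split: a *Ca-alpha1T* start that fell had 56% upstream, and a *stj* start that rose had 32.4%.
Sh: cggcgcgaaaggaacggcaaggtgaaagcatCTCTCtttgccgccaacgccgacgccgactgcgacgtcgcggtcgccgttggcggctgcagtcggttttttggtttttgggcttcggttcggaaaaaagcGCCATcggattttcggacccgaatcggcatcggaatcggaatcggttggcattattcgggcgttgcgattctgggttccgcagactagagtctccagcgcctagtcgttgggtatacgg
para: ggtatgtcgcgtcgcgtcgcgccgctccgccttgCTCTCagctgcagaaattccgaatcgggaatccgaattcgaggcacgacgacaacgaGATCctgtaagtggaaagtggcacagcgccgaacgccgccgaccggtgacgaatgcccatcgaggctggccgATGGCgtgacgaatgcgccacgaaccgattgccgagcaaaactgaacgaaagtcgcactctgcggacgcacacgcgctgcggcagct
Ca-beta: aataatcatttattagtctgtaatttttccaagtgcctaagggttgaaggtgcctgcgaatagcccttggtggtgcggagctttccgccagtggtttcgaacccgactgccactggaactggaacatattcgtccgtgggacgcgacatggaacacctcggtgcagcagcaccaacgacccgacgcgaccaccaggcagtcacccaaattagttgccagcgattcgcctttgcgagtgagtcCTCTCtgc
Ca-alpha1D: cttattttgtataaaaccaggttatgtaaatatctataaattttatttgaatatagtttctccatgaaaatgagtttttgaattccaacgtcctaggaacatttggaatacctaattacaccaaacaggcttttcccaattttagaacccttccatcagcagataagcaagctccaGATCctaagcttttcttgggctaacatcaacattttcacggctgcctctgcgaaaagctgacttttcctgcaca
Irk1: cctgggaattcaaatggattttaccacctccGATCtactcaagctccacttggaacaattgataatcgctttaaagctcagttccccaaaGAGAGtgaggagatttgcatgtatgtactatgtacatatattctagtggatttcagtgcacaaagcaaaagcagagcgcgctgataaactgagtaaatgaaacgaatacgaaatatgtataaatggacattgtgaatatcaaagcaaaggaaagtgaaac

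Each motif was searched on both strands of the 250 bases before every start tested. GATC was present at 34 of the 79 channel starts (43.0%) and at 39.7% of all 23687 starts, GAGAG at 35 (44.3%) and 28.1%, and GCCAT at 31 (39.2%) and 35.8%. A match is a string of letters and no evidence of binding.

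Of 63 other channel genes, from a list of further TRP, chloride, pickpocket, ligand-gated, gap junction and store-operated channels and channel-associated proteins, 11 rose (17.5%) and 21 fell (33.3%), beside the 22.3% and 25.7% of all genes, and 2 were at a peak (3.17%). Their median CD level was 0.07 and their median difference -0.08. The lowest differences were -1.20 at *Nca* and -1.02 at *Stim*, and the highest 0.59 at *brv3*, 0.52 at *Tmc* and 0.49 at *ppk26*, the last of which had a control level of 1.27.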

How the data were processed

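The files hold 1 value per GATC fragment for each of the 6 Dam::Pcl samples. The authors aligned reads with Bowtie2 to BDGP6 (dm6), filtered and extended them to GATC sites, and deposited damidseq_pipeline's log2 of Dam::Pcl over Dam alone. The values used are these deposited log2 ratios, and a fold is therefore relative to Dam alone. The pipeline scales both libraries before the ratio, which fixes each sample's 0, and its settings are not given in the sources used here. The depth is unknown, and 3 samples per diet limit the precision.

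All 373710 fragments on 2L, 2R, 3L, 3R, 4 and X began at a GATC of the RefSeq Release 6 genome, and their median length was 196 bp. Windows were built from the Ensembl BDGP6.54 annotation in Python 3.11.15 (numpy 2.4.6, pandas 2.3.3, scipy 1.17.1, matplotlib 3.10.9). Genes and starts with at least 2 fragments were tested. The methods compare reads with DiffBind. The files hold no reads, so limma 3.58.1 in R 4.3.3 (lmFit, eBayes) was fitted to the log2 values of all genes, starts or peaks, with Benjamini-Hochberg adjustment over each and a threshold of 0.05. Peaks came from a re-implementation of find_peaks (quantiles 0.95 to 0.99 in steps of 0.01, at least 2 fragments, 100 shuffles, FDR under 0.01, common to 3 replicates). Fits were tested on simulated data.

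Values per sample are given for genes at a peak, the 4 largest called rises and falls by gene and the 3 by start. Other starts and genes given per sample (*Irk1*, *Ca-beta* and the whole-gene values beside a peak) were chosen after their values were seen. Sequences before starts were read from the genome in place of a promoter table. The genes, the other channel list, the tests and the alternatives were chosen with earlier results of these data known. The alternatives were quantile normalization, scaling of each sample by its median and median absolute deviation (MAD), GC correction, the replicate number as a block, no flank, 500 bp around starts, fragments at 0 left out, eBayes with trend and robust, other peak settings, and each replicate left out. The GC correction regressed each sample's deviation from the mean of the 6 on GC content, mean level and their products over all features, and removed the fitted part.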

Additional observations from a re-analysis of the deposited data

How the results depend on the processing

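Depth cannot be read from ratios, and 3 samples per diet bound what can be told apart. The deviations of same-numbered replicates from their diet means correlated at -0.30, 0.21 and -0.21. Without values for differently numbered replicates, this does not settle whether the replicate numbers mark pairs. With the replicate number as a block, 4 channel genes were higher and 7 lower, against 8 and 12 without it. With GC correction these counts were 5 and 6, with GC correction and the block 2 and 1, and quantile normalization gave 19 lower. Leaving out 1 replicate gave 4 to 7 higher and 8 to 13 lower. Over all 18119 genes, 4032 were higher and 4661 lower as deposited, and 2917 and 3421 with the block. With GC correction the all-gene counts were 2641 and 3381, and with GC correction and the block 1735 and 2192. Quantile normalization gave 5369 lower over all genes, and leaving out 1 replicate 2583 to 3645 higher and 3485 to 4356 lower. Of the channel starts, 18 were lower as deposited, 8 with GC correction and 5 with GC correction and the block. Leaving out 1 replicate gave 10 to 19 higher and 9 to 17 lower channel starts. The counts over all starts under these alternatives are not given here. Settings for peak values were chosen after seeing the data. The 1 peak that rose was lost (0 calls) with GC correction, MAD scaling, quantile normalization and the block, and of the 2 that fell 1 was left with GC correction and with the block. Leaving out 1 replicate left 0 to 1 and 1 to 2. The number of channel genes at a peak was 5 at an FDR under 0.001, 6 with at least 3 fragments and 7 with peaks common to at least 2 replicates.

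GC correction, with or without the block, turned the sign of the gene difference at *para* (0.062), *Teh1* (0.22), *cac* (0.10), *Ca-alpha1T* (0.088), *Ca-beta* (0.026), *Sh* (0.061), *Shab* (0.060), *KCNQ* (0.27), *Elk* (0.088), *SLO2* (0.024), *SK* (0.13), *Irk1* (0.0058), *Trpgamma* (0.033) and *nompC* (-0.014), and at the *Ih* peak (-0.45). MAD scaling, in MAD units, turned *Teh3* (0.043), *nompC* (-1.71), the *Sh* peak without a call (-0.60), the *Ih* peak (-1.24) and both *nompC* peaks (-2.10 and -2.66). Quantile normalization turned *Teh3* (0.021), *nompC* (-0.24) and the same peaks (-0.043, -0.16, -0.29 and -0.14). With no flank *Teh3* (0.12) and *KCNQ* (0.012) turned. Leaving out 1 replicate gave ranges across 0 at *Teh1* (-0.043 to 0.020), *Teh3* (-0.079 to 0.036), *Ca-alpha1T* (-0.070 to 0.025), *KCNQ* (-0.030 to 0.026), *nompC* (-0.086 to 0.11) and its peaks (-0.076 to 0.15 and -0.27 to 0.64). The cause was not tested. Of the 20 called genes, quantile normalization and leaving out fragments at 0 kept 20, no flank 19, eBayes with trend and robust 19, MAD scaling 18 and the block 11.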
